A study of Ovis aries with 60 samples.

Results

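The genes described here are listed as histone and protein methyltransferases, enzymes that transfer a methyl group from S-adenosylmethionine (SAM) to histones and other proteins. They were chosen by name, as 38 listed symbols, and all 38 were found among the 28525 genes of the raw count table. The RNA came from semen of 20 F2 rams. In the treatment group, 10 rams descended, as grandsons, from 5 F0 sires that received extra methionine from weaning to puberty, with 2 rams per sire. In the control group, 10 rams descended in the same way from 5 F0 sires on the control diet. The F1 rams and the F2 rams themselves all received the control diet, so that no ram sequenced for RNA was fed the supplement. In the study each F0 sire had a single F1 son used as breeder, so his 2 rams share a father as well as a grandfather. The treated and control sires were twins of each other. P-values over rams do not take these relations into account. The semen was washed in a lysis buffer for somatic cells before RNA was extracted, and the labels give the cell type as sperm.

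Methionine is converted to SAM in the cell, and SAM is the methyl donor for nearly all protein and DNA methylation. Lysine methyltransferases with a SET domain, together with DOT1L, which lacks that domain, write the marks of active chromatin on H3K4, H3K36 and H3K79 and those of silent chromatin on H3K9, H3K27 and H4K20. Arginine methyltransferases (PRMTs) modify histones, splicing factors and ribosomal proteins. During spermatogenesis these marks are rewritten before most histones are exchanged for protamines, and mature sperm carry RNA left over from the spermatid stage while transcribing little or nothing themselves.

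Libraries are called by their labels, which end in the number of the ram and in T for the treatment or C for the control group. Total counts per library ranged from 805831 to 13137757. A gene was tested if more than 10 libraries held 15 or more of its counts, which kept 13577 genes. The study reports more genes under the same rule, and this gap was not examined. Of the 38 methyltransferases, 36 passed. SETMAR, a SET domain enzyme linked to H3K36, and PRMT6, which methylates H3R2, did not pass, with 3 to 25 and 2 to 49 counts per library. Levels are given as CPM, counts scaled to a common library size, after TMM scaling, in which a factor per library adjusts its total so that most genes are comparable. CPM are not divided by transcript length, so a level is compared only with that of the same gene in other rams.

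The labelled cell type was checked against marker genes, because the members are read in RNA of all cells left after the lysis step. Spermatid genes were present in all 20 rams, with PRM1 between 34.8 and 1531 CPM and TNP1 between 1.67 and 105.6 CPM. Genes of other cells were present as well. KRT78, a keratin of stratified squamous epithelium, ranged from 29.6 to 36816 CPM, and CSF3R, a receptor of neutrophils, from 6.63 to 10664 CPM. The markers were therefore summed per library as 3 measures of composition. The sums are not weighted, so the genes with the highest CPM lead them. In the squamous list, 13 of 18 genes passed the filter. KRT78 and KRT4, another keratin, had medians of 8216 and 2951 CPM, beside 17228 CPM for the squamous sum. Other genes of that list were low, with KRT5, LY6D and TP63 at 8.62, 4.26 and 28.5 CPM at most. The spermatid sum ranged from 278 CPM in SpermRNA468C to 11392 CPM in SpermRNA382T, the leukocyte sum from 109 CPM in SpermRNA485C to 23890 CPM in SpermRNA350C, and the squamous sum from 187 CPM in SpermRNA485C to 67833 CPM in SpermRNA468C. In bulk libraries of this kind, fewer cells of a type and less RNA per cell cannot be told apart.

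SpermRNA485C and SpermRNA382T stood apart from the others. They had the highest spermatid sums (11057 and 11392 CPM) and by far the lowest squamous sums (187 and 251 CPM, against at least 3228 CPM in the other 18 rams), and their leukocyte sums (109 and 121 CPM) were below the 377 CPM of the next ram. The sums moved together. Across the 20 rams the spermatid and squamous sums, on a log2 scale, had a Pearson r of -0.79 and a Spearman rho of -0.66 (permutation test, p = 2e-05 and p = 0.0019, adjusted over 3 pairs 6e-05 and 0.0057), and r was -0.64 without the 2 rams farthest from the median. The spermatid and leukocyte sums had r = -0.69 and rho = -0.58 (permutation test, p = 0.00058 and p = 0.00892, adjusted 0.00087 and 0.0134), and r was -0.47 without these rams. The leukocyte and squamous sums had r = 0.68 and rho = 0.40 (permutation test, p = 0.00094 and p = 0.0852, adjusted 0.00094 and 0.0852), but r was 0.28 without them, so that this relation rested on the pair of rams. No difference between the diets was called in any of the 6 marker sums computed (two-sided permutation tests with 100000 resamples, p from 0.258 to 0.885, each 0.885 after adjustment over the 6).

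The methyltransferases differed from ram to ram, though less than all genes did in the median. TMM factors ran from 0.361 in SpermRNA468C, the ram with the highest squamous sum, to 2.54 in SpermRNA413C, and each range below depends on them. The largest library totals, in SpermRNA320T, SpermRNA323T, SpermRNA340T, SpermRNA372T, SpermRNA400C, SpermRNA453C and SpermRNA468C, went with the highest squamous sums, 24232 CPM or more. The highest factors, in SpermRNA359T, SpermRNA366C, SpermRNA382T, SpermRNA413C, SpermRNA475C, SpermRNA485C and SpermRNA500T, went with the lowest, 7074 CPM or less. The SD of log2 CPM over the 20 rams had a median of 0.72 over the 36 members tested, against 0.91 over all genes tested. PRMT2, a weakly active arginine methyltransferase and coactivator of nuclear receptors, had the largest SD of the members, 1.46, and ranged from 2.54 CPM in SpermRNA468C to 120.8 CPM in SpermRNA382T. KMT2E, a divergent relative of the H3K4 enzymes, ranged from 54.4 CPM in SpermRNA413C to 1388 CPM in SpermRNA350C (SD 1.202). SMYD2, which methylates p53 and other proteins, ranged from 1.62 CPM in SpermRNA382T to 68.2 CPM in SpermRNA468C (SD 1.198). It had 4 of 1361691 counts in SpermRNA382T and 322 of 13137757 in SpermRNA468C, before TMM factors of 1.95 and 0.361. At the other end, PRMT5, the main enzyme of symmetric arginine methylation, stayed between 6.78 and 14.9 CPM (SD 0.28), SETD1A, a catalytic subunit of the SET1 complex, between 10.6 and 38.1 CPM (SD 0.43), and SETDB1, an H3K9 enzyme that silences transposons, between 6.23 and 19.4 CPM (SD 0.45). SUV39H2, an H3K9 enzyme abundant in testis, had no count in SpermRNA426T, where 3 counts would have given 2.43 CPM, and reached 16.2 CPM in SpermRNA340T.

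**Figure D1:**
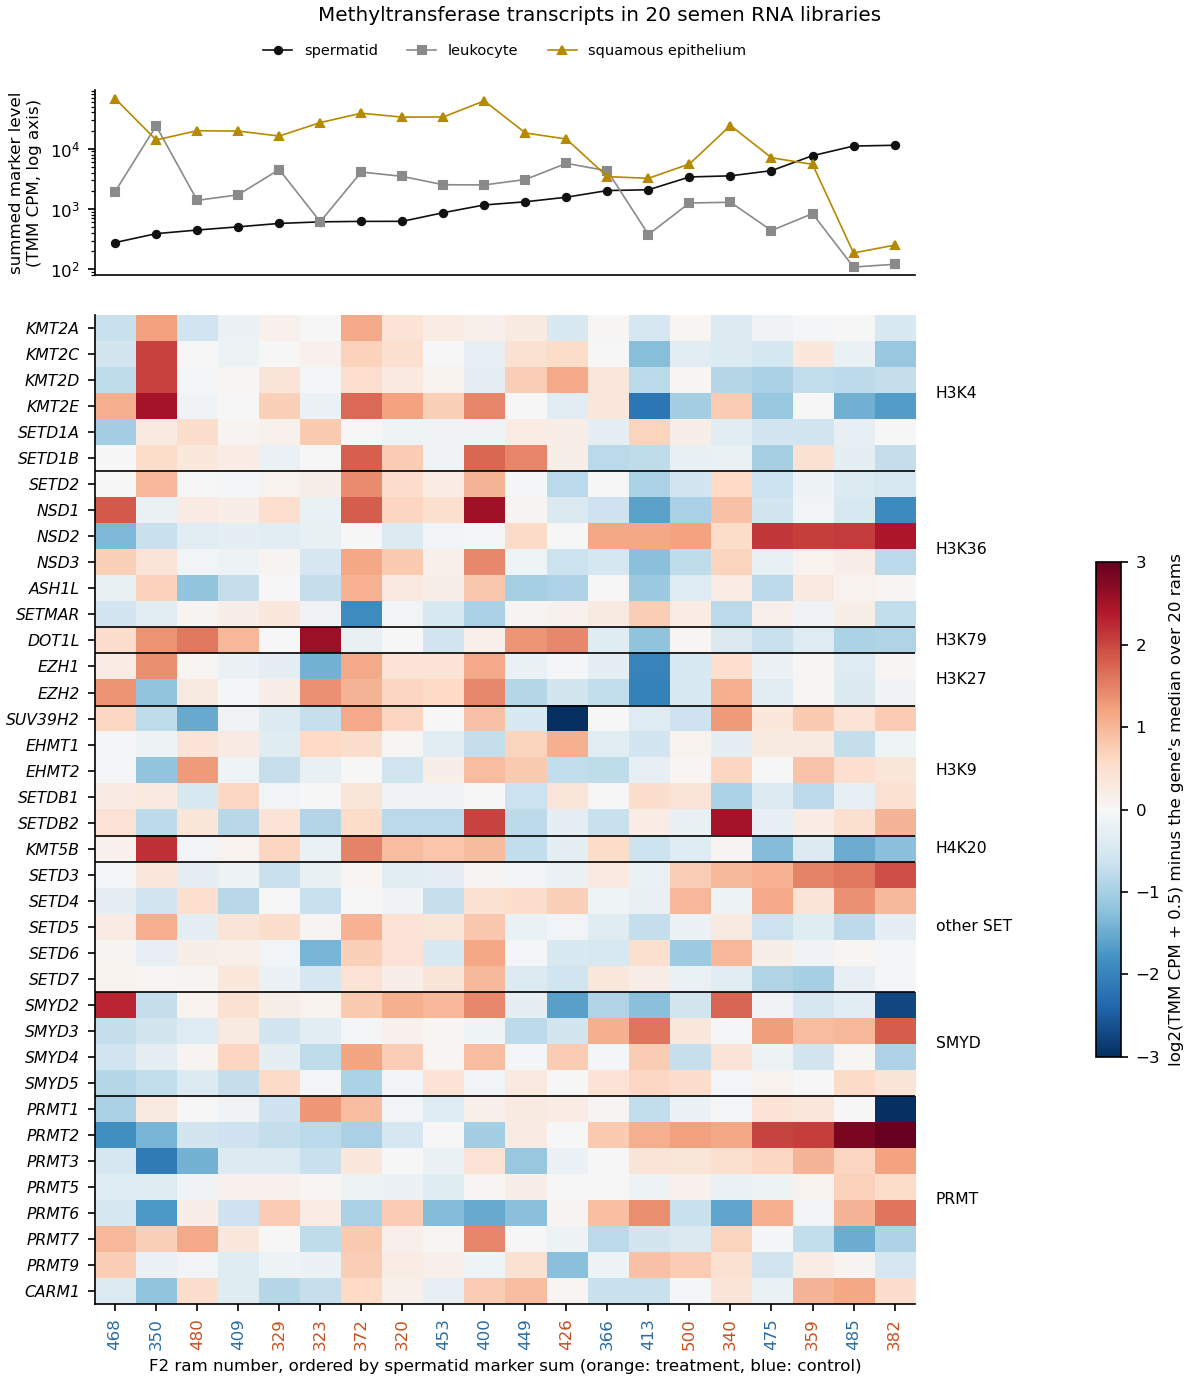
Heat map of the 38 methyltransferases (rows, grouped by the residue or protein family) in the 20 F2 rams (columns, ordered by the spermatid marker sum), as log2(TMM CPM + 0.5) minus the gene's median over the rams, with the 3 marker sums above on a log axis. PRMT2, NSD2 and SETD3 are high at the right, where SpermRNA485C and SpermRNA382T have squamous sums of 187 and 251 CPM, and KMT2E and KMT5B are high in SpermRNA350C, which has the highest leukocyte sum.

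The first comparison asks whether the diet of the grandfather goes with the level of any methyltransferase. No member was called different between the treatment and control groups. Of the 36 tested, 0 were called at an adjusted p under 0.05 by edgeR's quasi-likelihood test, with a background over all 13577 genes of 0% called, and 0 had an unadjusted p under 0.05, where 104 of all genes (0.766%) did. DESeq2 also called 0 members and 0 genes. The log2 difference, treatment minus control, was above 0 in 19 members and below 0 in 17, with a median of 0.01 over the members and -0.05 over all genes. This split moved with the fit, to 13 above and 23 below with library totals in place of TMM factors, 14 and 22 with DESeq2, and 24 and 12 with counts summed per F0 sire. Marker genes were not called by diet either, although all 17 leukocyte markers tested had differences below 0 (median -0.70). Of all 13577 genes, 7765 were below 0. The 17 markers are not independent of each other, and their sum differed by -0.12 in log2 (two-sided permutation test, p = 0.885). With the leukocyte, spermatid and squamous sums as covariates in the diet fit, 20 members had differences above 0 and 16 below, 7 of them with another sign than before, and the smallest unadjusted p was 0.122. The treatment and control rams overlapped in each of the 38 members, as they did in all 13577 genes tested. With counts summed per F0 sire, with 3 marker sums as covariates, or without SpermRNA485C and SpermRNA382T, edgeR still called 0 genes.

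The 6 members with the smallest p are given with their values. EHMT1, which with its partner EHMT2 writes H3K9 mono- and dimethylation, ranged from 16.9 to 46.9 CPM in treatment rams (median 25.0) and from 13.3 to 35.2 CPM in the control group (median 18.6). The groups overlapped over most of this range, and the log2 difference of 0.39 had a 95% interval from -0.19 to 0.97 (edgeR, unadjusted p = 0.176). SETD7, an H3K4 monomethylase that also acts on transcription factors, ranged from 4.23 to 12.2 CPM in the treatment group (median 7.74) and from 4.52 to 17.97 CPM in the control group (median 9.88). All treatment rams but the lowest lay within the control range, and the log2 difference was -0.34 (interval -0.88 to 0.20, edgeR, unadjusted p = 0.207). DOT1L, the only known H3K79 enzyme, ranged from 30.7 to 347.5 CPM in the treatment group (median 57.9) and from 24.8 to 148.7 CPM in the control group (median 54.9). Its medians lay close together and its log2 difference of 0.48 (interval -0.54 to 1.51) went with SpermRNA323T, at 347.5 CPM.

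SETDB2, a relative of SETDB1 that methylates H3K9, ranged from 7.97 to 87.3 CPM in the treatment group (median 18.5) and from 8.24 to 62.8 CPM in the control group (median 10.9). High values came from SpermRNA340T and SpermRNA400C, and they decided its difference: 0.43 with all rams, -0.08 without SpermRNA340T, and 0.91 without SpermRNA400C (edgeR, unadjusted p = 0.0384), not called after adjustment. EZH2, the catalytic subunit of PRC2, which writes H3K27 methylation, ranged from 23.5 to 90.1 CPM in the treatment group (median 40.6) and from 8.08 to 94.5 CPM in the control group (median 26.6), a log2 difference of 0.34 (interval -0.53 to 1.21). PRMT3, which methylates a protein of the small ribosomal subunit, ranged from 6.96 to 44.9 CPM in the treatment group (median 21.8) and from 4.03 to 30.5 CPM in the control group (median 18.01), a log2 difference of 0.29 (interval -0.47 to 1.04). All 6 intervals held 0. Single libraries moved these differences by more than 1.5 times: DOT1L fell to 0.04 without SpermRNA323T, SETD7 lay at -0.20 without SpermRNA400C, EZH2 at 0.20 without SpermRNA323T, 0.59 without SpermRNA400C and 0.56 without SpermRNA468C, and PRMT3 at 0.13 without SpermRNA382T and 0.17 without SpermRNA359T.

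**Figure D2:**
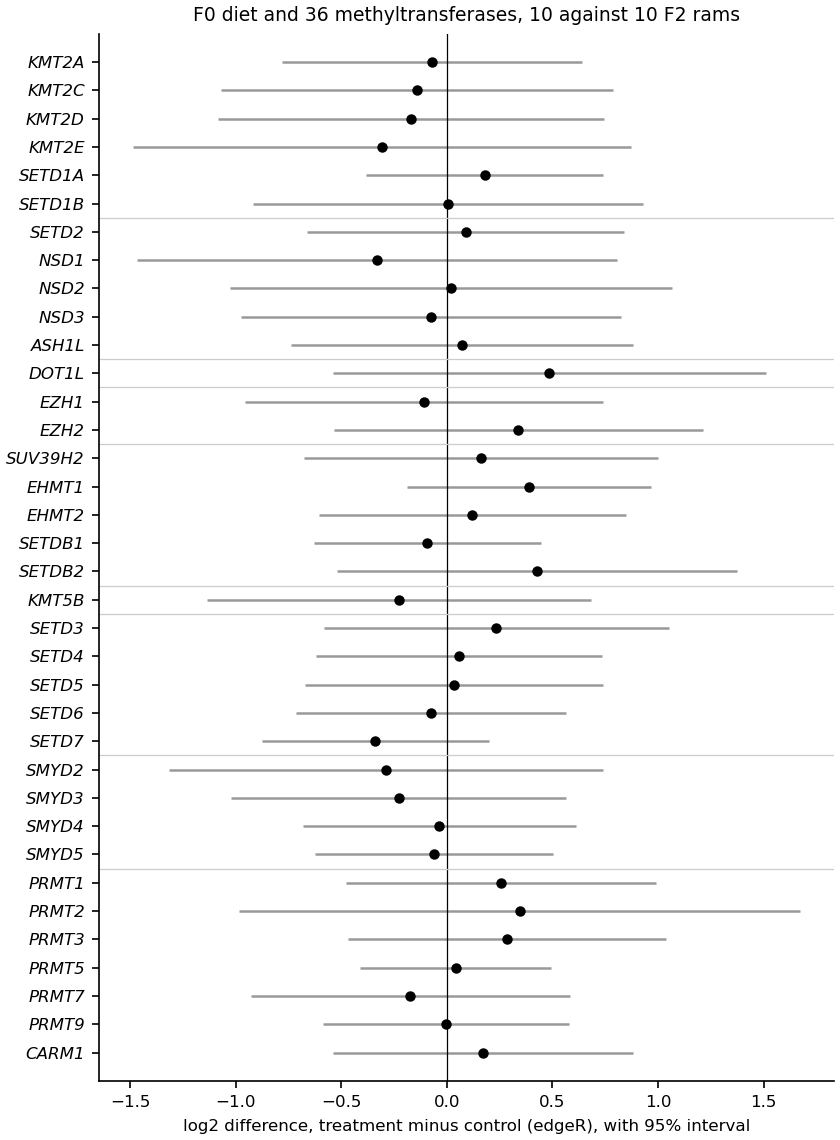
Log2 difference, treatment minus control, of the 36 members tested (points) with the 95% interval of edgeR (lines), grouped by residue or family, over 10 against 10 rams. Every interval crosses 0, and the widest is that of PRMT2, from -0.98 to 1.67.

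No gene of any group of enzymes was called by diet, and the signs that follow are those under TMM. Among the 6 H3K4 members 2 differences were above 0 and 4 below, and among the 5 H3K36 members tested the split was 3 and 2, whereas with library totals 0 and 1 of them were above 0. The 4 SMYD genes all had differences below 0 and 4 of the 5 H3K9 genes had differences above 0, with medians of -0.14 and 0.16, none of them called. The 7 PRMT genes tested had 5 differences above 0, and 3 with library totals. The intervals reached 1.51 for DOT1L and 1.67 for PRMT2, so that differences up to these sizes remain possible with 10 rams per group.

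The second comparison asks how the methyltransferases follow the make-up of the library, taken as a continuous measure over all 20 rams. The slope is the log2 change in CPM for each doubling of a marker sum, fitted with edgeR, and it is read relative to the bulk of genes. No slope was separated from library total or TMM factor, which went with the squamous sum as described above. For the spermatid sum 16 of 36 members were called, 8 higher and 8 lower, against 57.2% of all genes (24.9% higher and 32.3% lower), so that the share of members called was below the background. The median slope was -0.09 over the members and -0.04 over all genes.

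PRMT2 followed the spermatid sum most closely. It was at 120.8 CPM in SpermRNA382T and 75.8 CPM in SpermRNA485C, whereas the other 18 rams lay between 2.54 and 45.4 CPM with a median of 8.64. These 2 rams were the highest of all, but the rise ran through the other rams as well: the slope was 0.90 (SE 0.0657, adjusted p = 9.42e-11) with all rams and 0.85 (adjusted p = 8.39e-08) without SpermRNA485C and SpermRNA382T. NSD2, an H3K36 dimethylase, was at 198.0 CPM in SpermRNA382T and 156.1 CPM in SpermRNA485C, and between 13.99 and 158.6 CPM in the others (median 35.7). Its slope was 0.64 (SE 0.0724, adjusted p = 8.11e-08), and 0.68 without these rams (adjusted p = 5.73e-06). SETD3, the histidine methyltransferase of actin, was at 137.4 and 106.6 CPM in SpermRNA382T and SpermRNA485C and between 22.3 and 100.5 CPM in the others (median 33.7). Its slope was 0.38 (SE 0.0669, adjusted p = 4.89e-05) and 0.34 without them (adjusted p = 0.00571).

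SMYD3, which methylates a kinase of the MAP kinase pathway, was at 14.5 CPM in SpermRNA382T and 8.05 CPM in SpermRNA485C, and between 1.96 and 12.4 CPM in the others (median 3.58). The counts behind it were low, 3 to 51 per library. Its slope was 0.41 (SE 0.0845, adjusted p = 0.000391), and 0.42 without these rams (adjusted p = 0.00916). PRMT3 (slope 0.35) and SETD4 (0.29), a SET domain protein studied in quiescent stem cells, also stayed called without the pair of rams, with slopes of 0.39 and 0.27. CARM1 (0.20), which methylates H3R17, and SMYD5 (0.18) kept slopes of similar size without the pair (0.18 and 0.22) but were no longer called (adjusted p = 0.208 and 0.109).

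Lower members were led by KMT2E. It was at 76.8 CPM in SpermRNA382T and 89.99 CPM in SpermRNA485C, and between 54.4 and 1388 CPM in the others (median 280.9). The low values of the pair were thus within the range of the rest, and the slope of -0.50 (SE 0.143, adjusted p = 0.00528) became -0.42 without them (adjusted p = 0.0629). KMT5B, which writes H4K20 di- and trimethylation, was at 7.68 and 6.39 CPM in SpermRNA382T and SpermRNA485C and between 7.34 and 88.7 CPM in the others (median 20.2). Its slope was -0.46 (SE 0.107, adjusted p = 0.00105), and it was the only lower member still called without the pair (-0.41, adjusted p = 0.0283). DOT1L had a slope of -0.45 (SE 0.131, adjusted p = 0.00616) and NSD1, an H3K36 dimethylase like NSD2, one of -0.38 (SE 0.155, adjusted p = 0.0383), and without the pair the slopes were -0.43 and -0.30, neither called (adjusted p = 0.0669 and 0.204). The remaining lower members were SMYD2, PRMT7, KMT2D and SETD5. Without SpermRNA485C and SpermRNA382T, 7 members were called, 6 higher and 1 lower, against 28.3% of all genes. Leaving out SpermRNA485C alone brought the count to 10, with KMT2D, SETD5, NSD1, SMYD2, SMYD5 and CARM1 lost, while the share of all genes called went from 57.2% to 45.6%. The slope of KMT2D was -0.19 without SpermRNA350C and that of SMYD2 -0.20 without SpermRNA468C, in place of -0.31 and -0.33, and neither was called there.

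**Figure D3:**
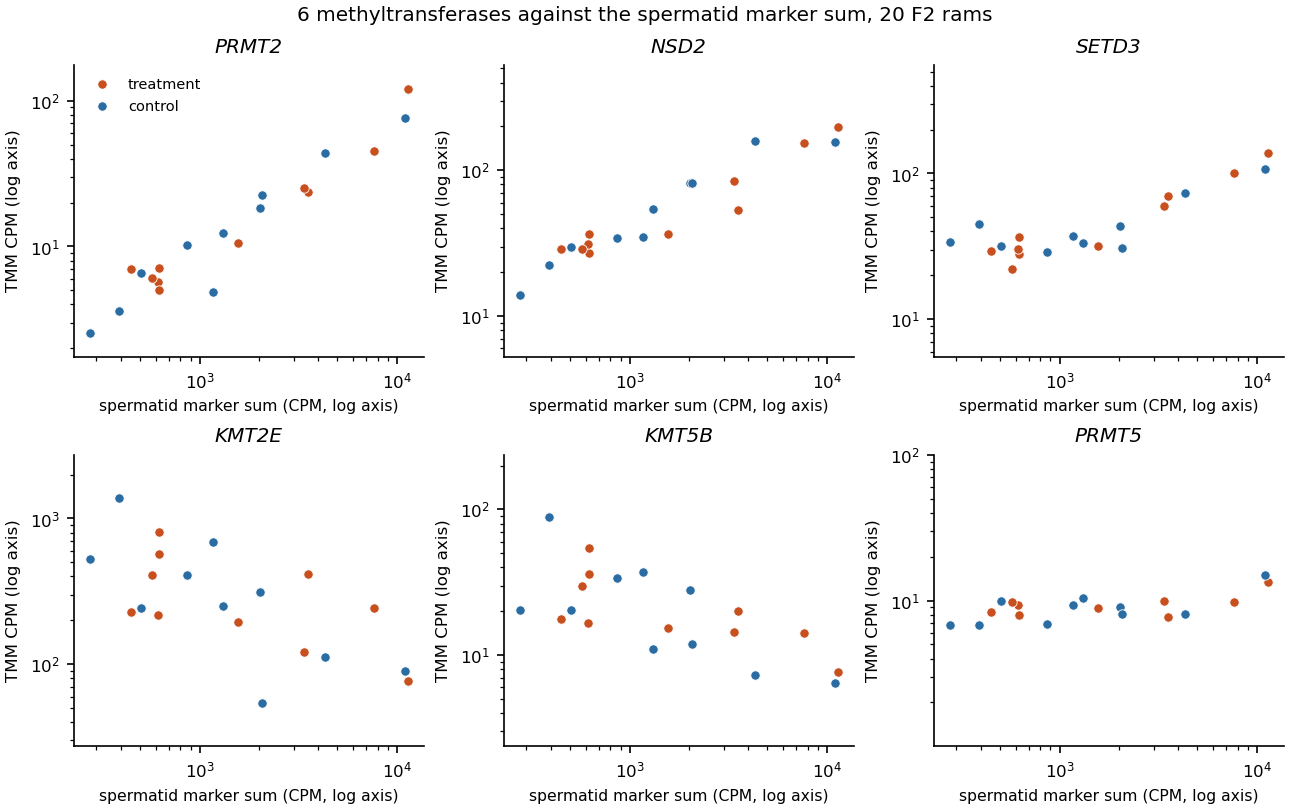
Level of 6 methyltransferases (TMM CPM, log axis with the same span in each panel) against the spermatid marker sum (CPM, log axis) in the 20 F2 rams, coloured by diet. PRMT2 climbs from 2.54 to 120.8 CPM along the axis. SETD3 turns up mainly among the rams with the highest sums, and KMT2E and KMT5B scatter downwards. PRMT5 lies between 6.78 and 10.4 CPM in 18 rams and at 13.3 and 14.9 CPM in SpermRNA382T and SpermRNA485C. The 2 diets are mixed throughout.

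By residue, the H3K9 and H3K27 writers held no gene called with the spermatid sum under TMM, with 0 of 5 and 0 of 2 by edgeR (each also 0 at an unadjusted p under 0.05). With library totals all 5 H3K9 genes were called higher, with slopes from 0.25 (EHMT1) to 0.35 (SETDB2), beside a median of 0.26 over all genes. SETDB2 was also called higher with upper quartile factors (slope 0.26, edgeR, adjusted p = 0.0418). All 6 genes of the H3K4 list, with KMT2E as a divergent relative, had slopes below 0 with TMM, as did 7234 of all 13577 genes. Of the 6, KMT2E and KMT2D were called, against 57.2% of all genes. With library totals in place of TMM factors only KMT2E kept a slope below 0 (-0.16), and the others lay between 0.08 and 0.27, and with upper quartile factors KMT2A (0.0067) and SETD1A (0.07) lay above 0. The 5 H3K36 members tested held NSD2 as higher and NSD1 as lower. Of the 7 PRMT genes, 3 were called higher (PRMT2, PRMT3 and CARM1) and 1 lower (PRMT7, the enzyme of arginine monomethylation). PRMT1, which carries out most asymmetric arginine methylation in other tissues, was not called (slope -0.09). It had 1 count in SpermRNA382T, 0.404 CPM, against 3.60 CPM or more in every other ram.

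For the leukocyte sum 13 of 36 members were called, 7 higher and 6 lower, against 40.5% of all genes (19.2% higher and 21.3% lower). The higher members were KMT2E, KMT5B, KMT2D, KMT2C, PRMT7, SETD5 and SETD2, and the lower ones PRMT2, NSD2, SMYD3, PRMT3, SETD3 and SETD4. KMT2E had a slope of 0.53 (SE 0.11, adjusted p = 0.000505) and KMT5B one of 0.46 (SE 0.0731, adjusted p = 3.83e-05). SpermRNA350C, which had the highest leukocyte sum, had the highest KMT2E (1388 CPM), KMT5B (88.7 CPM), KMT2D (501.3 CPM) and KMT2C (1016 CPM). KMT2C and KMT2D are the catalytic subunits of the COMPASS-like complexes that write H3K4 monomethylation at enhancers. Without SpermRNA350C the slopes were 0.52 for KMT2E, 0.43 for KMT5B and 0.28 for KMT2D, all 3 still called, while KMT2C fell from 0.28 to 0.19 and was not called (adjusted p = 0.116). Without SpermRNA485C and SpermRNA382T, 6 members were called, against 14.6% of all genes, of which KMT2E, KMT5B, KMT2D and KMT2C were higher and PRMT2 and NSD2 lower.

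For the squamous sum 19 of 36 members were called, 11 higher and 8 lower, against 65.5% of all genes (33.3% higher and 32.3% lower). SMYD2 rose with it (slope 0.35, SE 0.0791, adjusted p = 0.000489), as did NSD1 (0.35, SE 0.0739, adjusted p = 0.00027), KMT2E (0.37, SE 0.0982, adjusted p = 0.002) and PRMT7 (0.29, SE 0.0585, adjusted p = 0.000132). NSD1 was lowest in SpermRNA382T at 43.6 CPM and highest in SpermRNA400C at 956.2 CPM, and SMYD2 was also lowest in SpermRNA382T, at 1.62 CPM, and highest in SpermRNA468C, the ram with the highest squamous sum. The lowest slopes were those of PRMT2 (-0.56), NSD2 (-0.40), SMYD3 (-0.29) and SETD3 (-0.24), the same 4 genes that led the rise with the spermatid sum. Without SpermRNA485C and SpermRNA382T, 13 members were called, against 60.2% of all genes, and the slopes of SMYD2 and NSD1 became 0.66 and 0.68. Without SpermRNA485C alone, SMYD2 had a slope of 0.63 and NSD3 one of 0.26, in place of 0.15.

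The other 14 members tested (14 of 36, against 25.8% of all genes) were called by edgeR with none of the 3 sums when each was fitted alone: the H3K4 enzymes KMT2A and SETD1A, the H3K36 enzyme ASH1L, the H3K27 enzyme EZH1, all 5 H3K9 enzymes, PRMT1, PRMT9, SMYD4, SETD6, which methylates a subunit of NF-kappaB, and SETD7. ASH1L lay between 52.0 and 248.4 CPM, with slopes of -0.02, 0.10 and 0.04 for the spermatid, leukocyte and squamous sums. EHMT2 lay between 15.3 and 87.6 CPM, with slopes of 0.10, -0.15 and -0.0038, and SUV39H2 had slopes of 0.13, -0.09 and 0.01. EZH1 had a leukocyte slope of 0.21 (adjusted p = 0.0603) and was highest in SpermRNA350C at 230.1 CPM. KMT2A was also highest there, at 163.6 CPM (leukocyte slope 0.16, adjusted p = 0.0739). DESeq2 called both EZH1 and KMT2A higher with the leukocyte sum (adjusted p = 0.0307 and 0.0318), with nearly the same slopes. With library totals in place of TMM factors 12 of these 14 were called higher with the spermatid sum, EZH1 and PRMT1 being the exceptions, with slopes from 0.19 to 0.35 around the median of all genes.

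Because the 3 sums move together, they were also fitted jointly, so that each slope is what remains with the other 2 sums held constant. Fewer members were then called with each sum. With the spermatid sum only PRMT2 (0.69, adjusted p = 9.92e-05), NSD2 (0.55, adjusted p = 0.00232) and PRMT3 (0.45, adjusted p = 0.03) were called, 3 of 36 against 7.98% of all genes. With the leukocyte sum KMT2D (0.43, adjusted p = 0.000643), KMT2E (0.41, adjusted p = 0.0183), KMT5B (0.39, adjusted p = 0.00623) and KMT2C (0.36, adjusted p = 0.00897) were called, 4 of 36 against 11.1%. With the squamous sum SMYD2 (0.52, adjusted p = 0.00123), NSD1 (0.44, adjusted p = 0.00707), EZH2 (0.40, adjusted p = 0.00484), SETDB2 (0.38, adjusted p = 0.0195) and PRMT7 (0.27, adjusted p = 0.0241) were called, 5 of 36 against 33.5%. SETDB2 had a slope of 0.04 with the squamous sum alone, and -0.31 there with library totals. All 12 were higher, and no member was called for more than 1 sum. The share of all genes called for more than 1 sum was not computed, so this is a description only. The joint fit was not repeated without SpermRNA485C and SpermRNA382T or with other scalings. Over all genes the joint calls were mostly higher as well, with 1015 higher and 69 lower for the spermatid sum, 1231 and 282 for the leukocyte sum, and 3027 and 1523 for the squamous sum. The shares of members called were near those of all genes for the spermatid and leukocyte sums and below it for the squamous sum. The joint slopes of the spermatid sum changed sign for KMT2E (0.02), NSD1 (0.07) and SMYD2 (0.0073), which had been called as lower with that sum alone. The joint slopes of the leukocyte sum changed sign for SETD3 (0.0060) and PRMT7 (-0.0085), and that of the squamous sum for PRMT3 (0.17), and none of these 6 joint slopes was called.

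**Figure D4:**
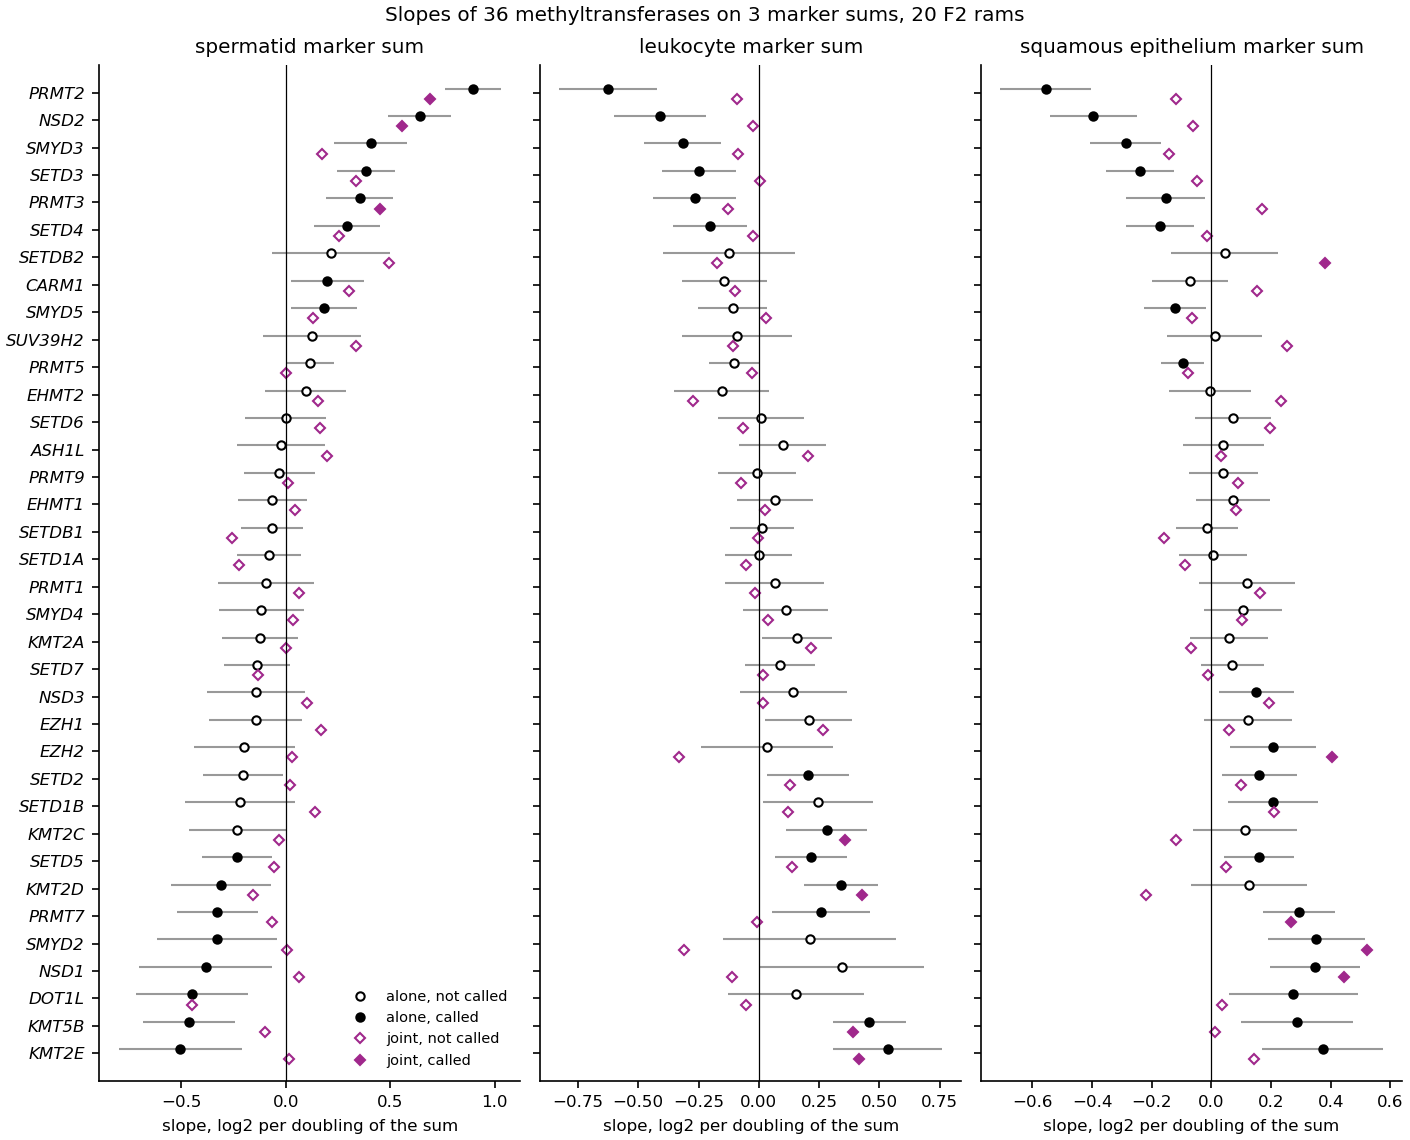
Slopes of the 36 members tested, as log2 change per doubling of the spermatid, leukocyte and squamous epithelium marker sums, from fits with 1 sum (circles, with 95% intervals) and from the joint fit (diamonds), filled where the adjusted p was under 0.05. The joint fit leaves 3, 4 and 5 filled diamonds, on different genes in each panel.

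The direction of these slopes depends on how libraries are scaled. With library totals in place of TMM factors the median slope over all genes moved from -0.04 to 0.26 for the spermatid sum, from 0.00 to -0.09 for the leukocyte sum and from 0.01 to -0.24 for the squamous sum. The members moved with it: 22 were called for the spermatid sum, all higher, where TMM gave 8 higher and 8 lower, and over all genes the split went from 3376 higher and 4389 lower to 7791 and 1272. For the squamous sum 13 members were called, all lower, where TMM gave 11 higher and 8 lower, and over all genes the split went from 4515 and 4384 to 1773 and 5353. For the leukocyte sum 3 members were called, 2 higher and 1 lower, in place of 7 and 6, and over all genes the split went from 2608 and 2888 to 1380 calls in all (10.2%), 927 of them higher. With upper quartile factors the members split into 10 higher and 5 lower for the spermatid sum, 4 and 8 for the leukocyte sum, and 4 and 9 for the squamous sum, where all genes split into 5222 and 3465, 1374 and 3070, and 3168 and 5539.

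PRMT2, NSD2, SMYD3, SETD3, PRMT3, SETD4, CARM1 and SMYD5 were higher with the spermatid sum under all 4 scalings, and PRMT2 kept nearly the same slope, 0.95 with library totals and 0.90 with TMM. KMT2E, KMT5B, DOT1L and NSD1 kept slopes below 0 with library totals (-0.16, -0.06, -0.06 and -0.07) but were not called there, and KMT2D, SETD5 and PRMT7 turned to slopes above 0 (0.08, 0.09 and 0.02). With library totals their slopes lay below the median of all genes, 0.26. PRMT5 was not called with the spermatid sum under TMM (slope 0.12, edgeR, adjusted p = 0.0648). It was called higher by DESeq2 (adjusted p = 0.039) and by edgeR with upper quartile factors (adjusted p = 0.0024) and library totals (adjusted p = 1.25e-05). For the squamous sum PRMT5 was called lower under TMM (slope -0.10, edgeR, adjusted p = 0.0194). With the leukocyte sum KMT2E and KMT5B were higher under all 4 scalings and called under each (library totals 0.36 and 0.35). With the squamous sum SMYD2, NSD1, PRMT7 and KMT2E kept slopes above 0 under all 4, but with library totals these were 0.12, 0.10, 0.08 and 0.12 and none was called (adjusted p = 0.320, 0.249, 0.510 and 0.387), whereas EZH2, SETD1B, SETD2, SETD5 and NSD3 turned below 0 with library totals.

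A ratio of the counts of 2 genes within a library does not depend on the scaling. It is not corrected for length, so only its change between rams is read. NSD2 over NSD1 ranged from 0.0237 in SpermRNA468C to 4.54 in SpermRNA382T (median 0.196), with 1.315 in SpermRNA485C and at most 1.53 in the other 18 rams. PRMT2 over PRMT1 ranged from 0.294 in SpermRNA323T to 299 in SpermRNA382T, where PRMT1 had 1 count, and was 10 in SpermRNA485C and at most 5.25 elsewhere. SMYD3 over SMYD2 ranged from 0.0311 in SpermRNA468C to 9 in SpermRNA382T, and SpermRNA485C, at 0.756, was within the range of the other 18 (0.0311 to 2.30). In each pair, the gene with more counts was not the same in all rams.

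Other pairs of related enzymes moved less. KMT2C over KMT2D stayed between 1.35 and 4.20 (SD of the log2 ratio 0.42), and EHMT1 over EHMT2 between 0.196 and 2.23 (SD 0.84). EZH1, which takes over from EZH2 in cells that do not divide, stood to EZH2 at 0.36 in SpermRNA323T and 15.4 in SpermRNA350C, with a median of 2.51, and SpermRNA382T and SpermRNA485C were near that median at 2.81 and 2.61. The mean log2 ratio of EZH1 to EZH2 was 0.98 ± 0.92 in treatment rams and 1.57 ± 0.97 in control rams (SD, n = 10 each), and that of NSD2 to NSD1 was -1.73 ± 1.90 and -1.88 ± 2.16, differences smaller than the spread between rams.

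**Figure D5:**
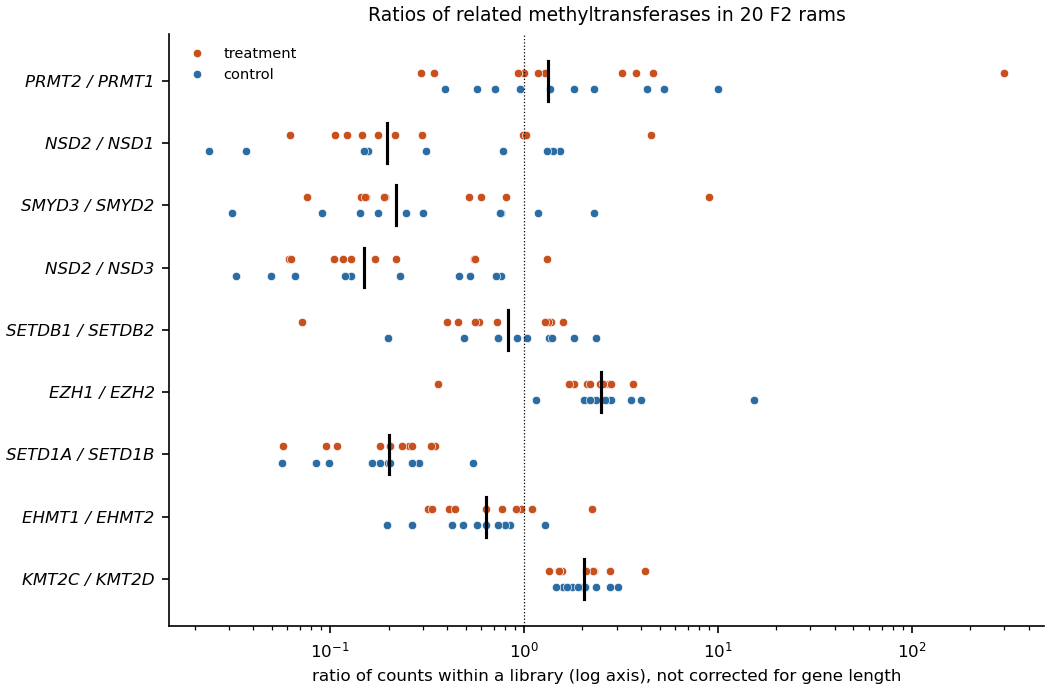
Ratio of the counts of related methyltransferases within each of the 20 F2 libraries (log axis, not corrected for gene length), coloured by diet, with the median as a black bar. The SD of the log2 ratio is largest for PRMT2 over PRMT1 (2.22), where SpermRNA382T lies at 299, and smallest for KMT2C over KMT2D (0.42).

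The enzymes work with partners and against demethylases, and these were read from fixed lists. By diet 0 were called in any list, and 0 of their members had an unadjusted p under 0.05. With the spermatid sum the lysine demethylases were called in 12 of 20, 3 higher and 9 lower. KDM1A, which removes H3K4 mono- and dimethylation, was among the higher ones (slope 0.91, SE 0.1, adjusted p = 5.51e-08) and ranged from 9.46 CPM in SpermRNA480T to 412.99 CPM in SpermRNA359T. KDM6B, which removes H3K27 methylation, was among the lower ones (-0.90, SE 0.292, adjusted p = 0.0121) and ranged from 30.8 CPM in SpermRNA485C to 7388 CPM in SpermRNA350C.

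Of the 10 genes of methionine and SAM supply, 4 were called higher and 4 lower. AHCY, which clears the S-adenosylhomocysteine left by each methyl transfer, went from 10.9 CPM in SpermRNA382T to 1344 CPM in SpermRNA468C (slope -0.72, SE 0.22, adjusted p = 0.00855), and MAT2A, which makes SAM in most tissues, from 12.9 CPM in SpermRNA382T to 1285 CPM in SpermRNA372T (-0.55, SE 0.225, adjusted p = 0.0386). SLC25A26, which carries SAM into mitochondria, went the other way, from 3.06 CPM in SpermRNA480T to 31.7 CPM in SpermRNA485C (slope 0.59, SE 0.0736, adjusted p = 3.58e-07). By diet the log2 differences of SLC25A26 and MAT2A were -0.53 and 0.52 (edgeR, unadjusted p = 0.256 and 0.485).

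Among the COMPASS partners, 1 of 10 was called higher, PAXIP1 (0.61), a subunit of the KMT2C and KMT2D complexes, and 2 lower, with KDM6A, the H3K27 demethylase of the same complexes, at -0.49. Among the PRC2 partners 2 of 9 were higher, with EPOP at 0.57, and 2 lower, with JARID2 at -0.56. Among the H3K9 partners 0 of 7 were higher and 2 lower, ATF7IP (-0.68), a cofactor of SETDB1, and MPHOSPH8 (-0.37), a reader of H3K9 methylation. Of the 4 PRMT partners tested, RIOK1 (0.33), an adaptor of PRMT5, was higher and BTG1 (-0.37), a partner of PRMT1, lower. In the list of 14 other protein methyltransferases tested, 4 were higher and 4 lower, with KMT5A, the H4K20 monomethylase, at -0.46. All of these shares are to be read against the 57.2% of all genes called. In the joint fit of the 3 sums most of these calls with the spermatid sum were lost, and every lower one. That fit left 2 of 20 lysine demethylases, 1 of 10 genes of methionine and SAM supply and 1 of 9 PRC2 partners, all higher, against 7.98% of all genes. By edgeR it called 0 of 10 COMPASS, 0 of 7 H3K9 and 0 of 4 PRMT partners and 0 of 14 other protein methyltransferases, of which 1, 1, 0 and 1 had an unadjusted p under 0.05.

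DNA methylation of the same F2 rams was read at SMYD3, for which the study's annotation places CG cytosines at both ends of an interval inside introns of the gene (Oar_rambouillet_v1.0, chromosome 12, 33660146 to 34244032). Those end positions came from a list of cytosines that differed in F1, and the interval was chosen after the data were seen. It held 25 listed CG cytosines in F2, with 348 to 995 reads per ram, each cytosine covered by at least 10 reads in every ram. The methylated share of these reads was 90.8% ± 3.90 in the treatment group (SD, n = 10, range 84.6 to 95.9%) and 91.1% ± 2.41 in the control group (n = 10, range 87.3 to 94.7%), a difference of -0.286 percentage points (two-sided permutation test with 100000 resamples, p = 0.845). Over all 122453 CG cytosines listed in F2 the share was 61.7% and 60.2%, a difference of 1.49 points (permutation test, p = 0.601). In the F0 rams the share in the interval was 81.7% ± 0.674 and 82.8% ± 0.993 over 82 cytosines, and in the F1 pools 82.7% ± 1.74 and 83.9% ± 1.53 over 72 (SD, n = 5 per group). The differences were -1.08 points in F0 (exact permutation test, p = 0.0873) and -1.15 points in F1, beside -0.41 and -1.17 points over all listed cytosines of F0 and F1. No p-value is given for F1, since the ends of the interval were listed for F1. The generations list different cytosines, so these levels are not set against each other.

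The end of the interval at position 34244032 (minus strand) was listed in F2 and spread over the whole scale. Of the 20 F2 rams, 3 were at 0%, 6 between 35 and 60%, and 10 at 90% or more, with 11 to 36 reads per ram. The mean was 71.9% ± 41.9 in treatment rams and 58.5% ± 31.2 in control rams (SD, n = 10 each, permutation test, p = 0.453). In the 10 F0 rams the same cytosine lay between 30.0 and 57.1%, with 20 to 46 reads. Its F0 means were 47.6% for treatment and 43.7% for control (exact permutation test, p = 0.508). In the F1 pools, whose difference had put it on the study's list, it was at 35.6% ± 12.3 for treatment and 62.4% ± 19.8 for control (SD, n = 5 each), given as a description with no test, and the order of these means was the opposite of that in F2. The other end, at 33660146 (minus strand), was at 81.7% in the treated and 87.0% in the control F0 rams (exact permutation test, p = 0.119). In the F1 pools it was at 69.9% for treatment and 93.5% for control, with no test. The study's annotation was available here only in part, so listed cytosines of these and other members may be missing. For SETDB1, the part read gives 1 cytosine from that list, in an intron and the promoter (chromosome 1, 106644379, minus strand). It was at 48.2% ± 26.5 in the treated and 50.3% ± 27.9 in the control F0 rams (SD, n = 5 each, exact permutation test, p = 0.786), and at 63.0% ± 21.2 and 41.3% ± 34.96 in the F1 pools that had put it on the list, given with no test. The remaining members are not analysed here for methylation.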

How the data were processed

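RNA of 20 F2 semen samples was analysed, 10 per diet of the F0 grandsire, with bisulfite data at SMYD3 and SETDB1. For RNA, the authors used Trimmomatic and STAR and deposited raw counts per gene. The strand setting of the counting is not given in the sources used here, so that overlapping or antisense genes cannot be told apart. For methylation the authors used Trim Galore and Bismark on Oar_rambouillet_v1.0 and deposited counts of reads and of methylated reads per cytosine. The 40 columns of unmethylated reads were not used.

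Counts were scaled by TMM and tested with edgeR 4.0.16 (R 4.3.3) by the quasi-likelihood test, for genes holding 15 or more counts in over 10 libraries, with Benjamini-Hochberg adjustment over all genes tested and a threshold of 0.05. Covariates were log2 sums of TMM CPM over fixed marker lists. The fits were tested on simulated data with known changes. Alternatives were DESeq2 1.42.0, library totals, upper quartile factors, no filter, added covariates, sums per sire, and libraries left out. SciPy 1.17.1 gave the permutation tests. PCR copies are not independent molecules, so that counts can overstate the number of molecules read. The SEs and p-values of edgeR rest on the spread estimated between libraries, not on counting error alone.

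The members, marker lists and partner lists were chosen with earlier results of these data known. Named are the 6 members with the smallest p by diet, the 4 highest and 4 lowest slopes per marker sum, the 3 highest and lowest by level and by SD, and up to 2 partners per list and comparison. One partner gene chosen by this rule is not reported here. Other genes were added after their values were seen. The planned methylation fit per gene was not run, for want of an annotation of that build.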

Additional observations from a re-analysis of the deposited data

Results flagged for a closer look

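The level of each member was screened within the treatment group and within the control group for a highest or lowest ram whose gap to the next, as a share of the group's range on the scale of log2(CPM + 0.5), exceeded Dixon's 95% limit for 10 samples. Of 76 groups screened, 7 passed. For independent, normally distributed values the limit flags about 1 in 20 groups. The screen was not run over all genes, so the count is a description only. In the control group KMT2A was at 163.6 CPM in SpermRNA350C, with the next ram at 84.1 CPM, and KMT2C was at 1016 CPM in the same ram, with the next at 337.7 CPM. SpermRNA350C had the highest leukocyte sum. EZH1 was lowest in SpermRNA413C, at 21.5 CPM against 66.8 CPM in the next ram, and this was the library with the fewest counts. SETDB2 was at 62.8 CPM in SpermRNA400C, with the next ram at 21.3 CPM. In the treatment group SETMAR was at 0.629 CPM in SpermRNA372T against 1.89 CPM in the next ram, on 3 counts. PRMT1 was at 0.404 CPM in SpermRNA382T against 4.72 CPM, on 1 count, and PRMT5 was at 13.3 CPM in SpermRNA382T against 9.93 CPM, and that ram had the highest spermatid sum. The part of library make-up or total counts in these values was not tested.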

How the results depend on the processing

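By diet, 0 genes and 0 members were called under every alternative run, including DESeq2, both other scalings, sums per F0 sire, a replicate block of consecutive F0 sire numbers, and each library left out in turn (0 to 0). Consecutive numbers were taken as twin pairs, which the labels do not state, and the block changed no call. With 1 library left out, the difference of SETDB2 ranged from -0.0801 (without SpermRNA340T) to 0.906 (without SpermRNA400C), the only reversal among the members named by diet.

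The count for the spermatid sum moved from 16 members to 3 with the other 2 sums as covariates and to 7 without SpermRNA485C and SpermRNA382T, and to between 10 and 17 with 1 library left out. That for the leukocyte sum moved from 13 to 3 with library totals, 4 with the other sums and 6 without the pair of rams (9 to 15 with 1 library left out), and that for the squamous sum from 19 to 5 with the other sums (14 to 19 with 1 left out). With the other sums as covariates KMT2E (0.015), NSD1 (0.0659) and SMYD2 reversed for the spermatid sum, SETD3 and PRMT7 for the leukocyte sum and PRMT3 for the squamous sum. With library totals KMT2D, SETD5 and PRMT7 reversed for the spermatid sum and SETD1B, SETD2, SETD5, NSD3 and EZH2 for the squamous sum. The uncalled leukocyte slope of NSD1 reversed with library totals (-0.00774) and with the other sums (-0.11). The cause was not tested. Of the 36 members, 11, 14 and 18 were called without the filter on low counts (all 27658 genes, 25.4%, 26.9% and 40.7%), with DESeq2 18, 17 and 19 (all genes 61.9%, 51.3% and 70.2%), and with diet as a factor 14, 12 and 19 (56.5%, 38.9% and 64.9%). With 1 library left out in turn, 10, 6 and 12 members stayed called throughout. The share of all genes called in these fits ranged from 45.6% to 61.9%, from 27.1% to 48.1% and from 61.2% to 67.3%. The share of all genes that stayed called throughout was not computed.

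The SMYD3 interval, chosen after the data were seen like the fits by diet without SpermRNA485C and SpermRNA382T, gave 0.786 points in place of -0.286 over the 4 cytosines with at least 15 reads in every ram. The planned methylation fits per gene were not run. Low counts limit some members: SUV39H2, PRMT1, PRMT6, SMYD3, PRMT9 and SETMAR had 0 to 3 counts in their lowest libraries.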
